A study of Mus musculus with 15 samples.

Results

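Cytosine methylation was examined at 10 genes of the stress hormone axis in the dentate gyrus, the part of the hippocampus in which new neurons form in adult rodents. The genes were the corticosteroid receptors Nr3c1 and Nr3c2, their cochaperones Fkbp5 and Fkbp4, the hormone Crh with its receptors Crhr1 and Crhr2, the hormone Avp, the steroid enzyme Hsd11b1 and the hormone-induced kinase Sgk1. Every CpG row of the deposited table inside or within 5 kb of one of these genes was taken, where a row is 1 cytosine of a CpG on 1 strand. The rule gave 325 of 455836 CpG rows, at 9 of the 10 genes. Values came from reduced representation bisulfite sequencing (RRBS), in which genomic DNA is cut with a restriction enzyme and the CpG-rich fragments are sequenced after bisulfite has converted unmethylated cytosines.

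All 15 mice were female C57BL/6JRj mice aged 7.5 months, and the labels name no transgene and no drug. The standard group (5 mice) lived in standard cages for 6 months and the enriched group (5 mice) lived in an enriched environment for 6 months. The withdrawal group (5 mice) had 3 months of enrichment followed by 3 months in standard cages. The comparisons ask how methylation differed between these housing groups. Withdrawal mice had 3 months of enrichment and enriched mice 6, so a shorter enrichment and its end cannot be told apart. The dissected tissue holds several cell types, and each percentage is an average over them.

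Corticosterone, the main glucocorticoid of mice, acts in the hippocampus through the high-affinity mineralocorticoid receptor (Nr3c2) and the lower-affinity glucocorticoid receptor (Nr3c1), both of which are ligand-activated transcription factors. FKBP51, the product of Fkbp5, lowers the hormone affinity of the glucocorticoid receptor complex and is itself induced by the hormone, while FKBP52, the product of Fkbp4, favours receptor activity. Corticotropin-releasing hormone (Crh) and vasopressin (Avp) drive pituitary ACTH release, and methylation of a promoter CpG island generally goes with a silent promoter.

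The 5′ windows of Crhr1, Fkbp5 and Sgk1 show where in these genes the assay read. Each window is the reference sequence from RefSeq, build GRCm38.p6, from 250 bases before to 50 bases after a transcript start, written 5′ to 3′ on the gene's strand. In the first 3 windows the capitals mark the CpGs for which a row was measured on at least 1 strand. The windows lie at chr11:104132531-104132830 (plus strand) for Crhr1, chr17:28486100-28486399 (minus strand) for Fkbp5 and chr10:21881934-21882233 (plus strand) for the most upstream start of Sgk1. In the last window, chr10:21993640-21993939 (plus strand) at a downstream start of Sgk1, the capitals mark a match to the glucocorticoid response element, the DNA sequence bound by the hormone receptor.
Crhr1 promoter: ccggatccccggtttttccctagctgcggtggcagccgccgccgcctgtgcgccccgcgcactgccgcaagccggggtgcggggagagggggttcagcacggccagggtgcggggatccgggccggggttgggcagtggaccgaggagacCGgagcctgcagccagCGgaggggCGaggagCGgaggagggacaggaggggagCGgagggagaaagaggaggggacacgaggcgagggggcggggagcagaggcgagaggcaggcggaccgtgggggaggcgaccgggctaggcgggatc
Fkbp5 promoter: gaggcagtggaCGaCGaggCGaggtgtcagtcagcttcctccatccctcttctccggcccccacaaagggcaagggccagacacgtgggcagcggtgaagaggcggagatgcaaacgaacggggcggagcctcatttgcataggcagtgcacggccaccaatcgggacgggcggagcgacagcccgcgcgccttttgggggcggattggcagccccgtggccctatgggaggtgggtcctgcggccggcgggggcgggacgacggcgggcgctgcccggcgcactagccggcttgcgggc
Sgk1 upstream promoter: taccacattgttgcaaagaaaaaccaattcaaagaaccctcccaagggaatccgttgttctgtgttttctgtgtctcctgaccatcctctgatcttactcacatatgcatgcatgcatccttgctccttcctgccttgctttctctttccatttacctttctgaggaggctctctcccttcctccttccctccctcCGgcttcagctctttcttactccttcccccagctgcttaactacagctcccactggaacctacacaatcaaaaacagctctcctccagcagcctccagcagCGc
Sgk1 downstream promoter: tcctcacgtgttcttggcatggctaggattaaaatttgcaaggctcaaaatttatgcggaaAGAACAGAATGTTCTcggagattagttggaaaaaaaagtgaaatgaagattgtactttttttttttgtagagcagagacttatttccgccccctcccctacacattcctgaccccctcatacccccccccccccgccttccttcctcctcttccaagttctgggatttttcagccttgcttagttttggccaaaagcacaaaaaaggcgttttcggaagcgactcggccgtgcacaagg

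The Crhr1 window holds 31 CpGs, of which 5 were measured, with a mean level of 2.20%. The Fkbp5 window holds 32 CpGs, and its 3 measured rows, all upstream of the start, were at 0% in every mouse with a value. The upstream Sgk1 window holds only 3 CpGs, of which 2 were measured at a mean of 2.13%. Both the GC-rich windows and the CpG-poor one were therefore low in methylation where the assay read them. Promoter windows of 8 of the 10 genes were present in the sequence table, and those of Nr3c1 and Crh were not used here.

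The motif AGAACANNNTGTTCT, in which N is any base, was searched on both strands of 32851 promoter windows of the same length and occurred in 3 of them (0.00913%). One was the downstream Sgk1 window, with the match at chr10:21993701-21993715, 189 bases before the start. The nearest measured CpG row lay 212 bases from the match, and no row fell inside it. One arm of it, AGAACA, which the full motif contains, occurred in 19.0% of all windows. The EGR motif GCGGGGGCG occurred in 2.91% of windows and overlapped the Fkbp5 start, 227 bases from the nearest measured row. The cAMP response element TGACGTCA occurred in 1.79% of windows and in none of those searched at these genes. The promoters of Crh and Nr3c1 were not among the windows searched.

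The depth behind each percentage is unknown, since no read counts accompany the table. As a partial view of it, the rows with a value at these genes ranged from 167 of 325 in standard mouse 1 (48.6% missing) to 319 in withdrawal mouse 4 (1.85% missing). Only 55 of the 325 rows (16.9%) had a value in all 15 mice, against 25.0% of all CpG rows. Methylation at non-CpG cytosines of these genes averaged 0.514% to 1.07% per gene, close to 0.829% over the whole table. No cell type could be checked against marker genes, because the files hold no expression values.

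Methylation was low at most rows of these genes. The mean over mice was under 20% at 265 of the 325 rows (81.5%, against 52.4% of all CpG rows), from 20% to 80% at 32 rows and over 80% at 28 rows. A total of 103 rows (31.7%, against 18.3% of all rows) were at 0% in every mouse with a value. Sgk1 gave 99 rows, Crhr1 75, Nr3c2 67, Fkbp5 23, Nr3c1 20, Fkbp4 17, Crh 11, Avp 9 and Crhr2 4. Hsd11b1, whose product regenerates active glucocorticoid inside cells and whose gene spans chr1:193221640-193264045, had no row, so its methylation was not analysed here.

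Level differed with distance from the nearest transcript start of the same gene, with starts of other genes not counted. In the 7 genes with rows and a start in the sequence table, 155 of the 157 rows within 1 kb of a start were under 20% methylated, with a median of 0.588%. These 157 rows came from 5 of the genes, with 76 in Sgk1, 46 in Crhr1, only 2 in Nr3c2 and no row at Avp or Crhr2. At 1 to 5 kb, 51 of 56 rows were under 20% (median 1.39%), but 42 of these 56 rows were a single Nr3c2 run that averaged 1.57%. This band thus mostly describes 1 gene. Beyond 5 kb, 31 of 81 rows were under 20% (median 43.5%), with 24 rows over 80%. The distant low rows were not spread evenly, as 17 of the 31 lay in Crhr1, 6 in Sgk1, 3 in Nr3c2 and 5 beside Avp. The 5 rows beside Avp lie inside the neighbouring gene Oxt, and their distance from an Oxt start was not measured.

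**Figure D1:**
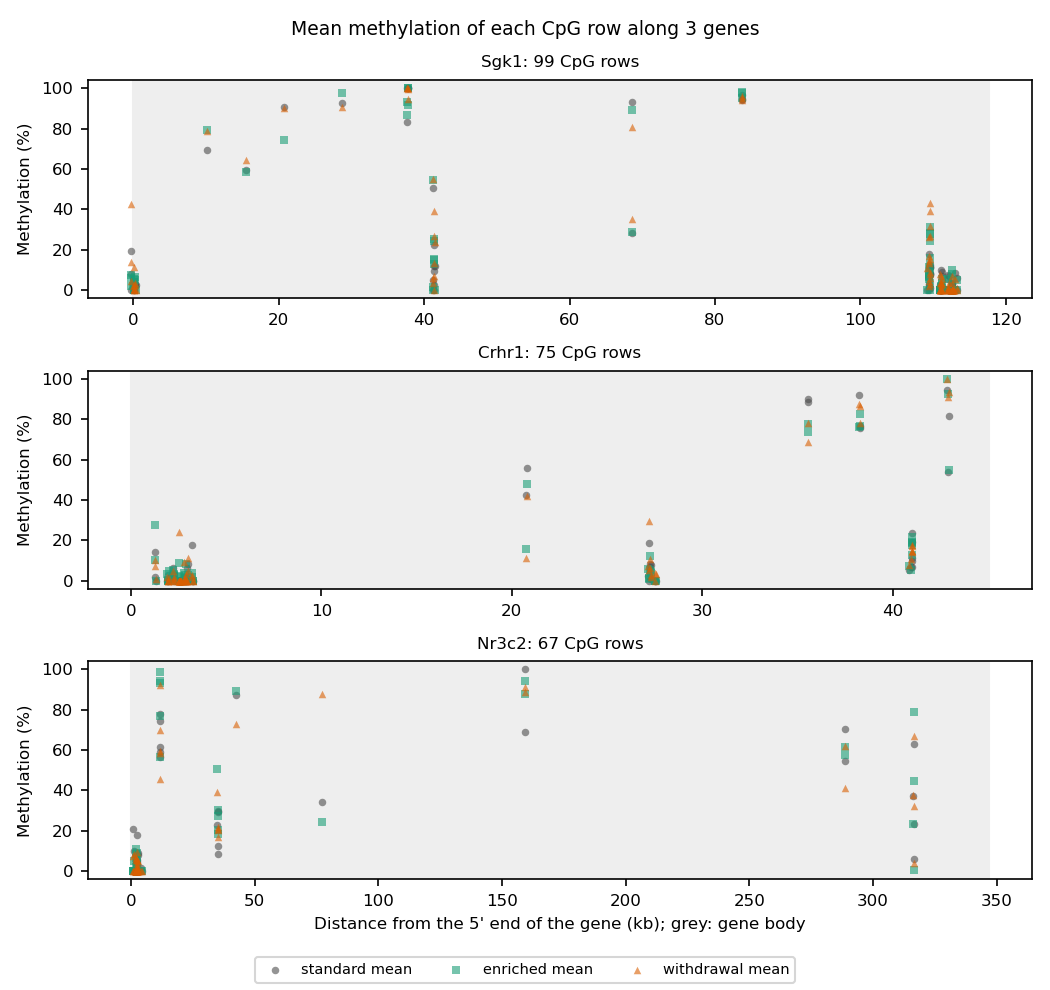
Methylation (%) of each CpG row against its distance (kb) from the 5′ end of Sgk1, Crhr1 and Nr3c2, with 1 point per group mean and the gene body in grey. Most rows near the 5′ end lie close to 0 in all 3 groups, most rows deep in the genes are higher, and low groups of rows recur inside Sgk1 and Crhr1.

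The glucocorticoid receptor gene Nr3c1 spans chr18:39410545-39519421, and its 20 rows lay inside it in 2 groups. A run of 16 rows between 39488477 and 39489209 averaged 1.31%, and 7 of its rows were at 0% in every mouse with a value. Averaged over the rows with a value in each mouse, this run was at 0, 0.0962, 0, 1.25 and 1.33% in standard mice 1 to 5. It was at 0, 1.02, 0.893, 1.81 and 2.01% in the enriched mice and at 0, 0, 1.56, 2.22 and 7.60% in the withdrawal mice. The groups overlapped, and withdrawal mouse 5 was the highest of all, beside a withdrawal mean of 2.28% ± 3.13 (SD, n = 5). Nearby, 4 rows between 39486285 and 39486576 were intermediate, at 30.2% ± 21.8 for the standard, 42.7% ± 27.5 for the enriched and 48.9% ± 24.1 for the withdrawal group (SD, n = 5 each). These rows varied more between mice of a group than between groups. The Nr3c1 row with the smallest p, at 39486576 on the minus strand, averaged 36.3% ± 49.6 in standard (n = 3) and 85.8% ± 13.1 in withdrawal mice (n = 3), and their values overlapped. The difference of 49.6 points did not pass (limma, adjusted p = 0.911).

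The mineralocorticoid receptor gene Nr3c2 spans chr8:76898083-77245012 and was low at its 5′ end and higher inside. Its run of 42 rows between 76899463 and 76900914 averaged 1.57%, with 1.30% ± 1.02 for the standard, 1.39% ± 0.645 for the enriched and 1.61% ± 0.894 for the withdrawal group (SD, n = 5 each). By contrast, 5 rows between 76909847 and 76909996 averaged 71.3%. A mean over the 4 rows of Nr3c2 with a value in every mouse, all of them well inside the gene, was 24.2, 44.3, 22.5, 8 and 45.8% in standard mice. The same mean was 29.4, 23.8, 46, 56.3 and 62.5% in enriched mice and 29.7, 38.3, 43.3, 33.6 and 32.8% in withdrawal mice. The groups overlapped, and the enriched mean exceeded the standard mean by 14.6 points (limma, adjusted p = 0.851). With missing values replaced by each row's mean, all rows of the gene gave a difference of 1.46 points in the same direction. At the Nr3c2 row with the smallest p, chr8:76975219 on the minus strand, standard mice 1, 3, 4 and 5 had 71.4, 0, 56.2 and 8.82%. Enriched mice had 35.3, 28.6, 7.69, 42.1 and 9.09%, and withdrawal mice 1 to 3 had 100, 87.5 and 75%. All 3 withdrawal values lay above all others, but the difference from the enriched group, 62.9 points, did not pass after adjustment (limma, adjusted p = 0.922).

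The cochaperone genes were low at their 5′ ends. Fkbp5 spans chr17:28398753-28486149 on the minus strand, and 13 rows 640 to 947 bases inside its start averaged 0.734%, with 8 of them at 0% in every mouse with a value. Group means of this run were 0.705% ± 0.650 for the standard, 0.687% ± 1.06 for the enriched and 0.885% ± 1.06 for the withdrawal group (SD, n = 5 each). Farther in, 4 rows 44084 to 44251 bases from the start averaged 82.8%. The single Fkbp5 row with a value in all 15 mice, at 28482438 and 3711 bases from the start, was at 73.4, 58.6, 69.8, 73.8 and 92.6% in standard mice. It was at 64.3, 90.8, 74.5, 85.2 and 86.3% in enriched and at 75.9, 81.9, 77.2, 83.6 and 67.4% in withdrawal mice. The 3 groups overlapped throughout, and the enriched minus standard difference was 6.59 points (limma, adjusted p = 0.939). The Fkbp5 row with the smallest p, at 28485400, was at 0% in the 12 mice with a value except standard mice 4 and 5, at 13.3 and 16.7% (limma, adjusted p = 0.892, enriched against standard). All 17 rows of Fkbp4, which spans chr6:128430103-128438656 on the minus strand, lay 326 to 941 bases inside its start and averaged 0.677%. At Fkbp4, 12 rows were at 0% in every mouse with a value, and the row with the smallest p, at 128437715, was above 0 in standard mouse 2 alone of 13 mice with a value (17.6%, limma, adjusted p = 0.892).

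**Figure D2:**
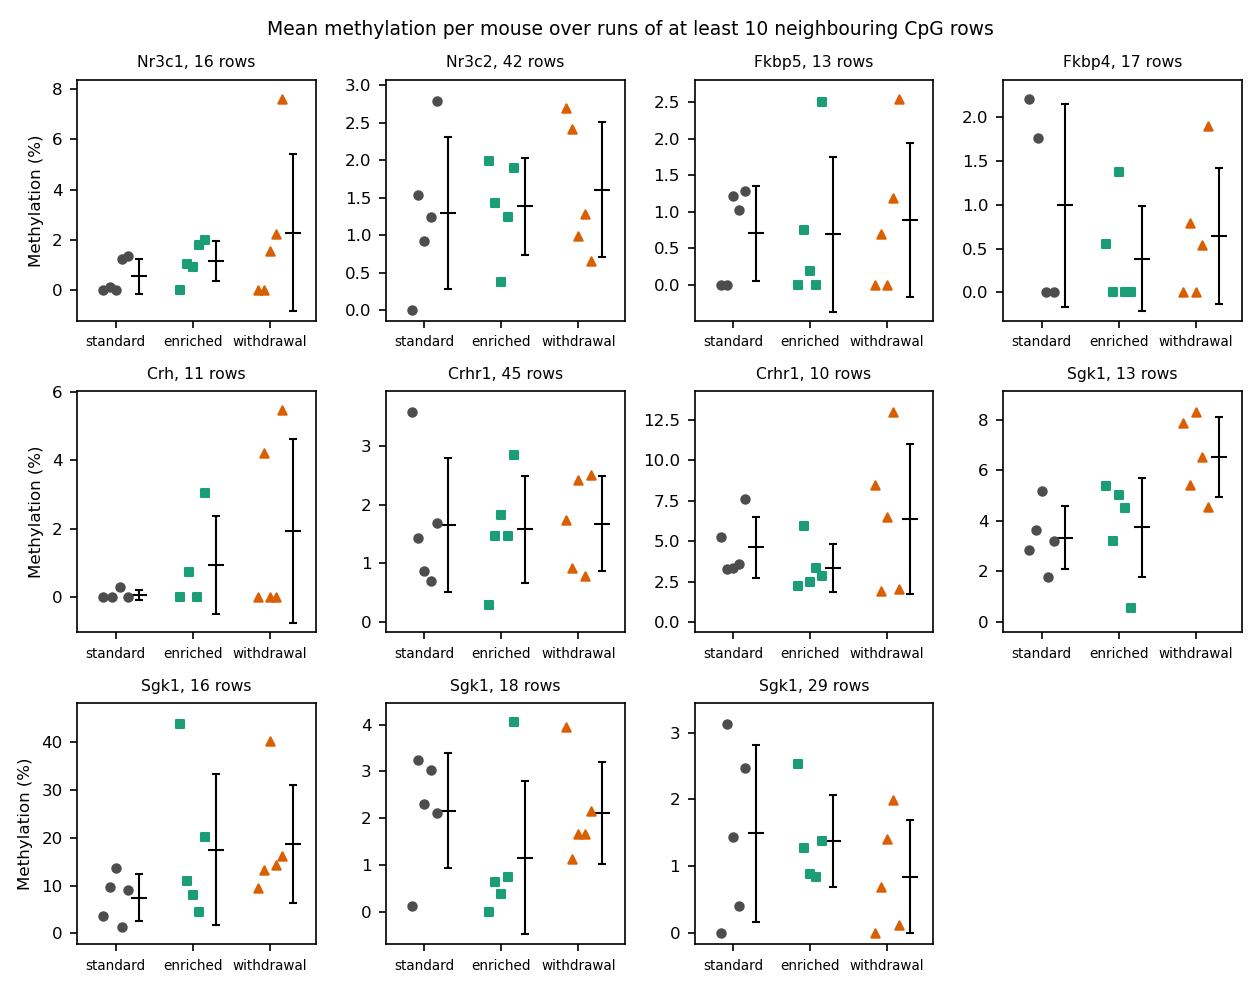
Mean methylation (%) in each mouse over runs of at least 10 CpG rows no more than 500 bases apart, by group, with bars for the mean and SD over mice (4 or 5 per group, with rows lacking a value left out per mouse). Panels are ordered by position within each gene, each panel has its own scale, and in every panel at least 1 mouse of each group falls inside the range of another group.

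Crh and Avp encode the releasing hormones. All 11 Crh rows lay close together, from 19694034 to 19694109 inside the gene (chr3:19693401-19695396), all on the minus strand. Their mean was 0, 0, 0.293 and 0% in standard mice 2 to 5, and 0, 0.727, 0 and 3.03% in enriched mice 1 to 4. In the withdrawal mice it was 0, 4.20, 0, 0 and 5.45%. Most mice were therefore at or near 0 in all 3 groups, and the row with the smallest p, at 19694081, owed its withdrawal mean of 16.6% to mice 2 and 5, at 23.1 and 60% (limma, adjusted p = 0.922, withdrawal against enriched). The Avp gene (chr2:130580620-130582588, minus strand) had 4 rows inside it, averaging 2.24%. At 130581240, 1348 bases inside its start, standard mice 2 to 5 were all at 0%, enriched mice had 0, 16.7, 6.49, 15 and 6.67%, and withdrawal mice had 0, 0, 0, 3.77 and 6.90%. The enriched mice exceeded the standard mice by 8.97 points (limma, adjusted p = 0.892), and enriched mouse 1 overlapped the standard mice. The other 5 rows counted for Avp, at 130576823 to 130576896, lay inside the neighbouring oxytocin gene Oxt and averaged 4.80%. They gave 4.99% ± 1.43 for the standard, 4.24% ± 2.01 for the enriched and 5.18% ± 1.13 for the withdrawal group (SD, n = 5 each), with limma adjusted p-values from 0.936 to 0.993.

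The receptor gene Crhr1 spans chr11:104130463-104175523 and held 45 of its 75 rows in 1 low run around the printed promoter, from 104132383 to 104133749. That run averaged 1.43%, and the means were 1.65% ± 1.15 for the standard, 1.58% ± 0.917 for the enriched and 1.67% ± 0.811 for the withdrawal group (SD, n = 5 each). Crhr1 also had low runs far from this start. A run of 10 rows 24832 to 25248 bases downstream averaged 5.02%, and 7 rows 38559 to 38700 bases downstream averaged 13.5%, while rows between and beyond them averaged 79.4%, 81.4% and 86.4%. Over the 19 Crhr1 rows with a value in every mouse, standard mice had means of 7.14, 4.74, 7.43, 11.5 and 2.61%. Enriched mice had 4.29, 9.21, 9.43, 10.8 and 12.1%, and withdrawal mice had 7.22, 4.88, 8.77, 8.02 and 8.68%. The groups overlapped, and the enriched minus standard difference of 2.48 points did not pass (limma, adjusted p = 0.888). With missing values replaced by each row's mean, all rows of Crhr1 gave a difference of -6.52e-05 points. The Crhr1 row with the smallest p, at 104173358 on the minus strand, was at 46.2, 60 and 55% in standard mice 1 to 3 and at 76.5, 100 and 100% in enriched mice 1, 4 and 5. In withdrawal mice it was at 82.4, 80, 100, 100 and 91.2%. The standard values lay below all others, with differences of 38.4 points for enriched (limma, adjusted p = 0.892) and 37.0 points for withdrawal (limma, adjusted p = 0.911), on 3 standard mice. At 104173406, in the same run and on the same strand, these standard mice had 100, 100 and 45% and these enriched mice 50, 75 and 40%. The run of 3 rows averaged 76.6% ± 13.6 in standard (n = 3), 82.4% ± 8.35 in enriched (n = 3) and 94.7% ± 4.27 in withdrawal mice (SD, n = 5).

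Crhr2, the receptor with preference for urocortins, spans chr6:55090048-55133016 on the minus strand and had 4 rows. A pair inside it, at 55113159 and 55113187, was intermediate. At 55113187 standard mice had 61.2, 63.8, 43.0, 67.2 and 44.7%, enriched mice 68.6, 44.1, 37.5, 44.6 and 28.2%, and withdrawal mice 54.5, 59.8, 33.3, 54.3 and 69.0%. The groups overlapped (enriched minus standard -11.4 points, limma, adjusted p = 0.908). The other pair, 3389 and 3410 bases upstream of the start, averaged 96.2%. It held the Crhr2 row with the smallest p, at 55136426, with 96.6% ± 6.82 in enriched and 90.5% ± 12.6 in withdrawal mice (SD, n = 4 each). Their values overlapped (limma, adjusted p = 0.922).

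Sgk1, the serum- and glucocorticoid-regulated kinase, acts on ion channels and is a classical target of the hormone receptors. The gene spans chr10:21882184-21999903 with starts in 6 promoter windows. Its rows were low around both the upstream and the downstream starts and mixed between them. Of the 23 rows more than 5 kb from a start, 11 were over 80% and 6 were under 20%. A run of 5 rows between 21919874 and 21919939 averaged 96.7%, and a run of 9 rows between 21923444 and 21923624 averaged 16.9%. Around the downstream start whose window is printed above, 18 rows 401 to 717 bases before it averaged 1.58%. A separate run of 29 rows that begins 380 bases after it and spans a further start averaged 1.18%. A run of 16 rows farther upstream, 21991357 to 21991833, averaged 12.9% and lay 390 to 866 bases before another Sgk1 start. In that run the standard mice were at 3.70, 9.67, 13.6, 1.26 and 9%, the enriched mice at 43.8, 11, 8.02, 4.54 and 20.2%, and the withdrawal mice at 9.56, 13.3, 40.2, 14.3 and 16.1%. The groups overlapped, and 1 enriched and 1 withdrawal mouse stood above the rest. That enriched mouse, mouse 1, had no value on the minus strand of this run, so its mean covers plus-strand rows only.

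In this Sgk1 run the strands differed. Over its 7 minus-strand rows the withdrawal mice had 14.2, 28.0, 40.3, 30.1 and 23.5%, a mean of 27.2% ± 9.53 (SD, n = 5), against 10.6% ± 9.52 in standard (n = 5) and 10.6% ± 7.23 in enriched mice (n = 4). Over its 9 plus-strand rows the withdrawal mean was 11% ± 16.6, the standard mean 5.71% ± 4.04 and the enriched mean 17.4% ± 19.2 (SD, n = 5 each). On the plus strand the highest mean was thus that of the enriched mice, and on the minus strand that of the withdrawal mice. These strand means were chosen after the values were seen and were not tested.

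Of the 207 rows tested at these genes, the row with the smallest p lay 325 bases before the upstream start of Sgk1, at chr10:21881859 on the minus strand, with a value in all 15 mice. Standard mice had 15.2, 30, 16.7, 11.4 and 23.8%, enriched mice 0, 0, 0, 10.5 and 0%, and withdrawal mice 41.2, 17.2, 61.5, 42.5 and 51.1%. Every withdrawal mouse was above every enriched mouse, and every standard mouse lay above the enriched mice as well. The withdrawal mean exceeded the enriched mean by 40.6 points, a log2 ratio difference of 3.60 ± 0.72 (SE), and did not pass (limma, adjusted p = 0.666). The enriched mean was 17.3 points below the standard mean at this row (limma, adjusted p = 0.892). The next row on the same strand, at 21881832, was at 0% in all 5 standard mice, at 31.6% in enriched mouse 2 and 0% in the other enriched mice, and at 41.2, 17.2, 9.09, 0 and 2.08% in the withdrawal mice. Withdrawal mice 1 and 2 thus had the same percentages at both positions, while the standard mice differed between them. Without the row at 21881859, the remaining 12 rows of this run averaged 1.97% ± 1.30 for the standard, 4.01% ± 2.24 for the enriched and 3.52% ± 1.69 for the withdrawal group (SD, n = 5 each), and the groups overlapped.

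Over the 23 Sgk1 rows with a value in every mouse, standard mice had means of 14.1, 16.1, 13.2, 13.7 and 16.1%, enriched mice 17.1, 11.8, 12.1, 13.6 and 14.1%, and withdrawal mice 18.5, 15.2, 18, 14.6 and 12.8%. No pair of groups was separated, and the largest difference, withdrawal minus enriched, was 2.07 points (limma, adjusted p = 0.989). Restricted to rows inside the gene, this difference was -0.0258 points. The enriched minus standard difference was -0.908 points, and 0.774 points over all rows with missing values replaced.

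**Figure D3:**
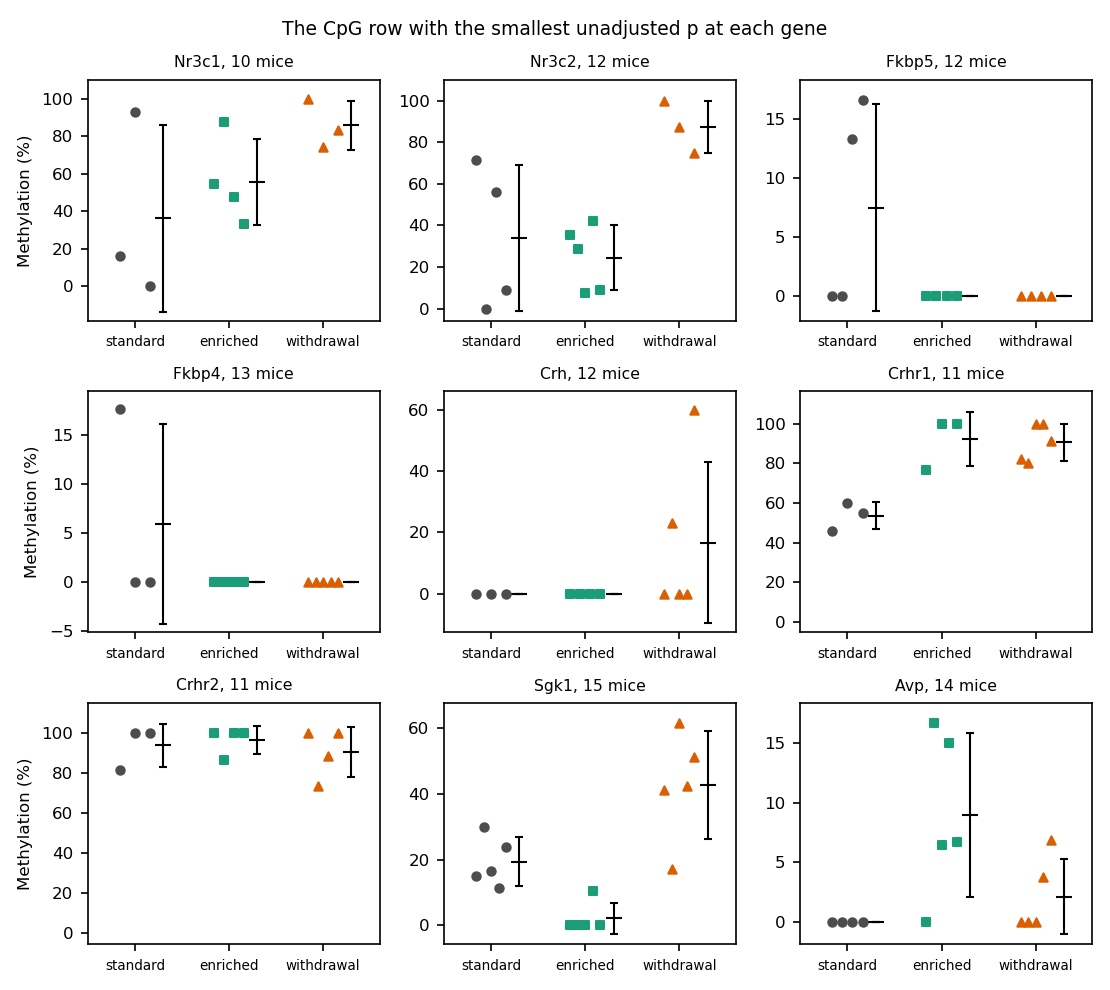
Methylation (%) in each mouse at the CpG row with the smallest unadjusted p of each gene, with bars for the mean and SD of the mice with a value. The Sgk1 row separates the withdrawal from the enriched mice, the Nr3c2 and Crhr1 rows separate groups of 3 to 5 mice, and the Fkbp5, Fkbp4 and Crh rows rest on 1 or 2 mice above 0.

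Across all 9 genes, no row passed the test after adjustment. Of the 325 rows, 118 varied by under 5 points over the mice and were left out, and 207 were tested. At an adjusted p under 0.05, 0 of 207 rows were called in each of the 3 comparisons (0% of the 350663 rows tested in the table), with smallest adjusted p-values of 0.892 (enriched against standard), 0.911 (withdrawal compared with standard) and 0.666 (withdrawal compared with enriched). At an unadjusted limma p under 0.05, 5 rows passed for enriched against standard, which is 2.42% against 4.67% of all rows tested, and 4 of them were higher in enriched mice (1.93%, against 2.41% of all rows). For withdrawal against standard 9 rows did (4.35% against 4.3%), 8 of them higher in withdrawal mice (3.86%, against 2.35% of all rows). For withdrawal against enriched 12 rows did (5.80% against 4.18%), 8 of them higher in withdrawal mice (3.86%, against 2.24% of all rows). The shares were thus below that of the whole table for enriched against standard, near it for withdrawal against standard and above it for withdrawal against enriched, and the share higher in withdrawal mice was above that of all rows in both comparisons. The first count was 8 to 10 rows without standard mouse 3, 4 or 5 or enriched mouse 2, and the second was 16 rows without standard mouse 3. Over all rows tested, the first count was 16390 with all mice and 16931 to 17592 without 1 of these mice. The second was 15079 with all mice and 16341 without standard mouse 3. The 26 differences found with all mice at these genes came from 20 rows, of which 3 had a value in all 15 mice. Sgk1, with 71 of the 207 rows tested, held 12 of the 20. By comparison, 2 of its 71 rows (2.82%) passed for enriched against standard, and 7 (9.86%) passed in each comparison with the withdrawal group. Of the 8 rows higher in withdrawal mice, Sgk1 held 6 against standard and 5 against enriched, and the rest lay in Nr3c2 and Crhr1. Its minus-strand rows at 21991783, 21991811, 21991821 and 21991833 lie in 1 run and were among them. Such neighbouring rows are not separate evidence. The 3 comparisons share mice, so they are not independent of each other.

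Most differences were small. The median signed difference over the 207 rows was 0.277 points for enriched minus standard, 0.626 points for withdrawal minus standard and 0 points between withdrawal and enriched mice, beside a median of 0 over all rows in each. The median absolute difference was 3.64, 3.75 and 3.63 points in that order, beside 5.19, 4.90 and 4.81 over all rows tested. Spread between mice depended on level. Rows under 20% had a median range over the mice of 7.69 points, rows from 20% to 80% one of 79.5 points and rows over 80% one of 47.5 points, and in the middle class the median SD between mice of a group was 21.9 points.

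No mean over several rows passed either. Among 1 kb windows with at least 3 rows measured in every mouse, 7 lay at these genes (3 in Crhr1, 2 in Sgk1, 1 in Nr3c2 and 1 at Avp, inside Oxt). None had an adjusted p under 0.05 (0% of 15677 windows), and none had an unadjusted limma p under 0.05, where 5.71%, 4.8% and 4.39% of all windows did in the enriched to standard, withdrawal to standard and withdrawal to enriched comparisons. The window with the smallest p was the Crhr1 window starting at 104133001, with 1.02% ± 1.22 in standard and 2.57% ± 1.73 in withdrawal mice (SD, n = 5 each, limma, adjusted p = 0.995). In Sgk1 the window starting at 21993001 had the smallest p (2.90% ± 2.04 in standard against 1.44% ± 1.55 in enriched mice, limma, adjusted p = 0.899). In Nr3c2 it was the window starting at 77214001 (30.9% ± 19.4 in standard against 41.3% ± 19.3 in enriched mice, limma, adjusted p = 0.911). Gene means were tested for Sgk1, Crhr1 and Nr3c2 and for the 5 rows near Avp that lie inside Oxt, and none of the 4 passed at an adjusted p under 0.05 (0% of 9265 genes) or at an unadjusted p under 0.05, where 5.94%, 5.13% and 4.61% of genes did in the same order of comparisons.

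CpGs read on both strands gave a second measurement of the same site. Methylation at a CpG is normally symmetric, and over the 29826 such pairs of the whole table the mean level on the plus strand followed that on the minus strand (Pearson r = 0.977 across pairs). The difference between groups did not follow: across the same pairs r was 0.0190 for enriched minus standard, 0.0240 for withdrawal minus standard and 0.0210 for withdrawal minus enriched. At the stress hormone axis genes 21 CpGs had both strands, with r = 0.745 for the level and 0.167, 0.357 and -0.403 for the 3 differences, in a set that is mostly near 0%. Of the pairs at these genes with a non-zero difference on both strands, the sign was shared in 7 of 10, 8 of 12 and 5 of 11. Over the whole table it was shared in 7623 of 15210, 8169 of 16085 and 8122 of 16144 such pairs. These correlations are descriptions over sites of the same 15 libraries.

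The Sgk1 CpG at chr10:21991810 showed this most plainly. On its plus strand the standard mice 1, 3, 4 and 5 had 0, 3.70, 0 and 0%, the enriched mice 50, 38.9, 5.88, 0 and 61.5%, and the withdrawal mice 1, 2, 4 and 5 had 0, 0, 0 and 13.2%. On its minus strand, 1 base on, the standard mice had 0, 12.5, 30.4, 13.9 and 0%, enriched mice 2 to 5 had 0% each, and the withdrawal mice had 7.14, 28.6, 39.1, 37.8 and 20.8%. Withdrawal minus enriched was -28.0 points on the plus strand (limma, adjusted p = 0.922) and 26.7 points on the minus strand (limma, adjusted p = 0.922). The 2 cytosines of 1 CpG thus had differences of opposite sign between the same groups. At Nr3c1, the pair at 39488875 had standard, enriched and withdrawal means of 0.862, 3.36 and 7.54% on the plus strand and of 0, 0 and 17.1% on the minus strand. The minus-strand mean came from withdrawal mouse 5 alone, at 85.7% with every other mouse with a value at 0%, and on the plus strand that mouse had 7.14% while withdrawal mouse 3 was the highest at 25%. The row at 21881859 had no measured partner on the other strand.

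**Figure D4:**
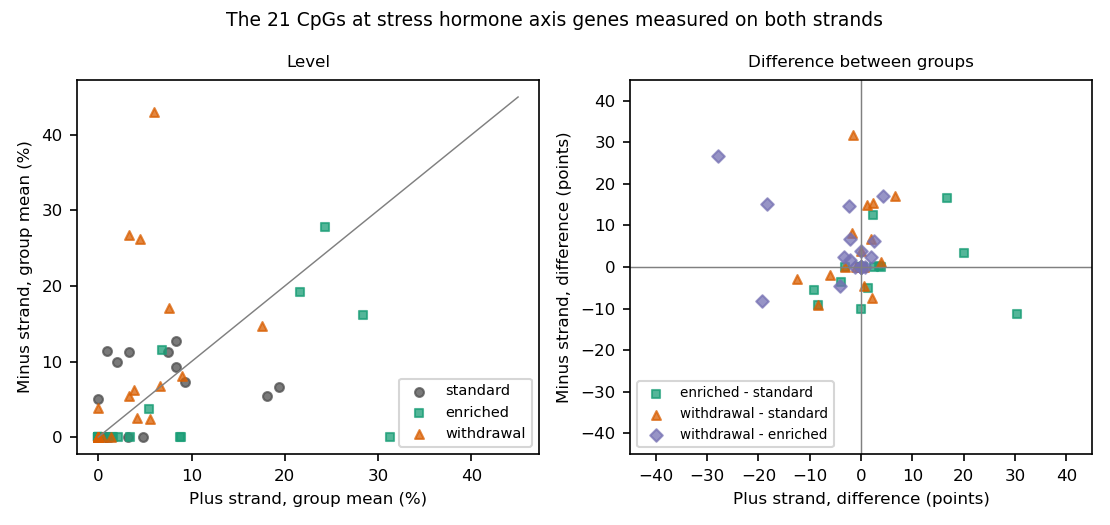
Plus-strand against minus-strand values for the 21 CpGs at these genes read on both strands: group means (%) at left, with the line of equality, and differences between groups (percentage points) at right. The upper left point of the right panel is the Sgk1 CpG with -28.0 points on the plus and 26.7 points on the minus strand for withdrawal minus enriched.

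Other genes of the pathway were read from a list of 28 (other ligands and receptors, chaperones and coregulators, steroid enzymes and hormone targets), of which 16 had a gene mean. None was called at an adjusted p under 0.05. At an unadjusted limma p under 0.05, 2 of 16 were higher in enriched than in standard mice (12.5%, against 5.94% of all gene means in either direction), and 0 of 16 passed in each of the other comparisons (against 5.13% and 4.61%). Crhbp, which binds and sequesters corticotropin-releasing hormone, had 77.7, 85.2, 82.7, 83.4 and 64.7% in standard and 92.7, 92.2, 82.1, 88.6 and 97.3% in enriched mice, which overlapped (11.8 points, limma, adjusted p = 0.753). Stip1, a cochaperone linking HSP70 and HSP90, was at 1.38% ± 2.02 in standard and 3.36% ± 1.31 in enriched mice (SD, n = 5 each, limma, adjusted p = 0.836). Ncoa2, a steroid receptor coactivator, had the third smallest p, with 8.25% ± 3.64 in standard and 4% ± 3.78 in withdrawal mice (limma, adjusted p = 0.970).

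Sgk1 had the most rows with a value in every mouse, and its gene mean was compared across the 15 mice with those of 2753 genes with at least 10 such rows. The most similar were Ppp1r10 (Pearson r = 0.798), Mrps18b (r = 0.763) and Deptor (r = 0.760), while the lowest correlation was -0.687. These values describe the closest of many genes over few mice, and in each mouse all gene means come from the same library. Ppp1r10 and Mrps18b both lie on chromosome 17, and whether they share rows was not tested.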

How the data were processed

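Methylation was measured by RRBS in the dentate gyrus of 15 mice, 5 in each of 3 housing groups, taken from the sample titles. Trim Galore 0.4.0, cutadapt 1.8.1, Bismark 0.16.1 and methylKit 1.5.2 and the genome mm10 are named, without roles, per the submitters' processing notes. The values deposited by the authors are percent methylation per cytosine and strand, 1 column per mouse, with no read counts, so the depth is unknown and no counting interval was computed. A minimum coverage is not given in the sources used here. The number of columns from other samples was 0. Rows before the chromosome column restarts were taken as CpG. In the promoter windows of GRCm38.p6, 40750 such rows were at a CpG in 100% of cases, against 0% of 118733 rows of the second run.

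Each percentage was put on the scale log2((percent + 5)/(100 - percent + 5)) before limma 3.58.1 in R 4.3.3 fitted the 3 group means over all 15 mice with a variance trend. Fits covered all CpG rows with a range of at least 5 points, 1 kb windows and gene means (inside or within 5 kb), the last with at least 3 rows measured in every mouse. Tests were two-sided, with Benjamini-Hochberg adjustment over every row, window or gene tested and a call at an adjusted p under 0.05. A simulated data set with known differences was used to test the script. Differences are in percentage points between group means, and a run is a set of rows no more than 500 bases apart. The mean of a run in a mouse uses the rows with a value in that mouse.

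The genes and lists were chosen with earlier results of these data known. Rows named are the one with the smallest p for each gene and any with an unadjusted p under 0.001, and windows named are those with an unadjusted p under 0.05 or else the smallest p of each gene. Other pathway genes named are the 3 with the smallest p, and similar genes the 3 most correlated. Other rows are described by their runs or were chosen after their values were seen. Alternatives were an offset of 1, the percent scale, no range filter, no variance trend, complete rows only, at least 5 rows per window, rows inside genes only, missing values replaced by the row mean, a replicate block and leaving out each mouse. Sequences are from RefSeq, and motifs were searched as letters on both strands. Same-numbered mice of different groups did not deviate together (correlation of deviations -0.0177 to 0.0192 over 15 pairs, against -0.0227 to 0.0266 for other pairs), so the numbers were not used for pairing.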

Additional observations from a re-analysis of the deposited data

Results flagged for a closer look

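In 2 of the 25 groups of 4 or 5 mice examined at the named rows and gene means, 1 mouse stood far from the others relative to the group's range, where chance alone marks about 1 in 20 such groups. At the Crhr2 row at 55136426, enriched mouse 3 was at 86.4%, while the other 3 enriched mice with a value were at 100%. At the Sgk1 row at 21881859, enriched mouse 4 was at 10.5%, while the other 4 enriched mice were at 0%. In both cases the other mice were tied at a bound of the percent scale, so any departure is marked.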

How the results depend on the processing

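No row, window or gene mean of these genes was called in any comparison under any alternative. With the replicate block, 0 were called as well, and 7, 11 and 10 rows had an unadjusted p under 0.05 (enriched against standard, withdrawal against standard, withdrawal against enriched). In that fit 15783, 14928 and 14586 of all 350663 rows tested did. Such counts over the rows of these genes ran from 1 to 10, 4 to 16 and 1 to 14 over all alternatives. The main counts moved by over 1.5 times for enriched against standard without standard mice 3 (9), 4 (8) or 5 (10) or enriched mouse 2 (9), and for withdrawal against standard without standard mouse 3 (16). With complete rows only, 1, 4 and 1 of 47 rows had such a p, where 5177, 4441 and 4323 of all 100562 rows tested did. The number of gene means with such a p for enriched against standard rose from 0 to 1 (Nr3c2) without standard mouse 2 or 5 or enriched mouse 2, to 1 (Crhr1) without standard mouse 4, and to 2 (both) without enriched mouse 1. Over all 9265 gene means the number was 548 to 580 in these settings, beside 550 with all mice. Of the 7 windows, 1 (Crhr1, 104133001) had it for withdrawal against standard without withdrawal mouse 5, where 724 of all 15677 windows did. The withdrawal minus enriched difference at the Sgk1 row at 21881859 stayed between 35.9 and 47.0 points, with adjusted p from 0.116 to 0.917.

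Differences of gene means that changed sign were all small. The Avp mean holds only rows inside Oxt, except where missing values are replaced. With missing values replaced by the row mean, Avp gave -0.358 points for withdrawal minus standard and -0.354 for withdrawal minus enriched, Crhr1 gave -6.52e-05 for enriched minus standard and 0.560 for withdrawal minus enriched, and Sgk1 gave 0.774 for enriched minus standard. Inside the gene only, Sgk1 gave -0.462 for withdrawal minus standard and -0.0258 for withdrawal minus enriched. Leaving out 1 mouse at a time, the difference ran from -1.27 to 0.0520 for Avp, enriched minus standard (above 0 without enriched mouse 2), from -0.194 to 0.768 for Avp, withdrawal minus standard (below 0 without standard mouse 2 or 4 or withdrawal mouse 1 or 3), and from -0.198 to 2.03 for Crhr1, withdrawal minus standard (below 0 without standard mouse 5). The cause of these changes was not tested. Only 55 of 325 rows had a value in every mouse, which limits the window and gene means.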

Other observations

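With missing values replaced by each row's mean, 9 gene means and 33 windows of these genes were compared in place of 4 and 7, on values in which part of the spread between mice has been removed. In that fit 0 were called at an adjusted p under 0.05 in each of the 3 comparisons. The gene mean and windows named next are those with an unadjusted limma p under 0.05. For withdrawal against standard they were 1 of 9 gene means (against 5.09% of all) and 2 of 33 windows (against 5.19%). For withdrawal against enriched they were 2 of 33 windows (against 4.90%), and no other comparison had any. Nr3c1 was 4.03 points higher in withdrawal than in standard mice (limma, adjusted p = 0.921), with only 1 of its 20 rows measured in every mouse. The Crhr1 window starting at 104173001 was 14.1 points higher in withdrawal than in standard (limma, adjusted p = 0.954) and 10.7 points higher than in enriched mice (limma, adjusted p = 0.984). That window holds the row at 104173358 named above. Only 3 standard and 3 enriched mice had a value in it, and the other mice of these groups were filled with row means. The Sgk1 window starting at 21881001, which holds the row at 21881859, was 11.3 points higher in withdrawal than in standard (limma, adjusted p = 0.954) and 15.1 points higher than in enriched mice (limma, adjusted p = 0.984).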
